A study of Mus musculus with 20 samples.

Results

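Nuclear RNA was compared between mammary tumors by ranking 20 tumors on Malat1 and Neat1, a pair of long noncoding RNAs that stay in the nucleus. The tumors came from female F1 mice born to neuT-positive BALB/c fathers and FVB/J mothers. neuT is the rat HER2/neu oncogene under the MMTV promoter, which is active in mammary epithelium, and all tumors shared it. A single tumor was taken per mouse and RNA of a small frozen piece of it was sequenced. The labels name a TruSeq mRNA kit, a kit that captures RNA by its poly(A) stretches. No normal gland enters any comparison. The labels divide the tumors into 9 named Lo and 11 named Hi, and neither name is explained in the sources used here. The age of each mouse is not in the labels.

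The score was the mean z-score of log2(CPM + 1) over Malat1 and Neat1, where CPM is the read count scaled to a common library total. Yam1 and AY036118, a pair of genes that collect ribosomal RNA reads, were left out of the totals. The 6 tumors of highest score, called rich here, were 7, 4, 9, 12, 11 and 6, which are 2 Lo and 4 Hi. The 6 of lowest score, called poor, were 14, 20, 17, 16, 21 and 22, which are 3 Lo and 3 Hi. Together they make 12 of the 20 tumors, and the 8 others lay between. The groups were thus chosen by measured values, and the levels of Malat1 and Neat1 are given as a description with no test.

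Most messenger RNA leaves the nucleus soon after splicing, whereas Malat1 collects at nuclear speckles, where splicing factors are stored, and Neat1 builds the paraspeckles, bodies that can hold RNA back from the cytoplasm. Messages with an unspliced intron, intron fragments and small nucleolar RNAs (snoRNAs), which guide the modification of ribosomal RNA and are cut from introns, are also mostly nuclear. Messages for ribosomal proteins and for the respiratory chain are short, spliced and cytoplasmic.

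Both RNAs defining the score are shown first by the part of the transcript that bears on poly(A) selection, from GENCODE M21 on GRCm38. Malat1 lies at chr19:5795690-5802672 on the minus strand and Neat1 at chr19:5824708-5845478, also on the minus strand. Capitals mark the longest run of A in Malat1, the AATAAA signal near the end of the short Neat1 form, and the A run near the end of the long form. The windows are chr19:5795958-5796029, chr19:5842307-5842366 and chr19:5824708-5824767.
Malat1: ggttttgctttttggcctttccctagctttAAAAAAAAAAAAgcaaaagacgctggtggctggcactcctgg
Neat1 short form: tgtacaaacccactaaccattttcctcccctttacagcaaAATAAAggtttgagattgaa
Neat1 long form: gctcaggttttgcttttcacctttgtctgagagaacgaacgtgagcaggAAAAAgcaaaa
The run in Malat1 was 12 bases long, and 13.9% of 18607 genes tested held a run at least that long in some transcript.

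Malat1 ranged from 3181 to 5243 CPM in the rich tumors, with a median of 3914, and from 1228.5 to 2065 CPM in the poor ones, with a median of 1958. Neat1 ranged from 1131 to 2194 CPM with a median of 1607 in the rich tumors, and from 470.2 to 764 CPM with a median of 595 in the poor. The 8 tumors between had medians of 2820.2 and 934 CPM. At the upper edge tumor 6 scored 0.74 and was taken, whereas tumor 3 scored 0.71 and was not. At the lower edge tumor 22 scored -0.68 and was taken, whereas tumor 18 scored -0.48 and was not. The step at the upper edge was thus small beside the spread within the rich group.

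**Figure D1:**
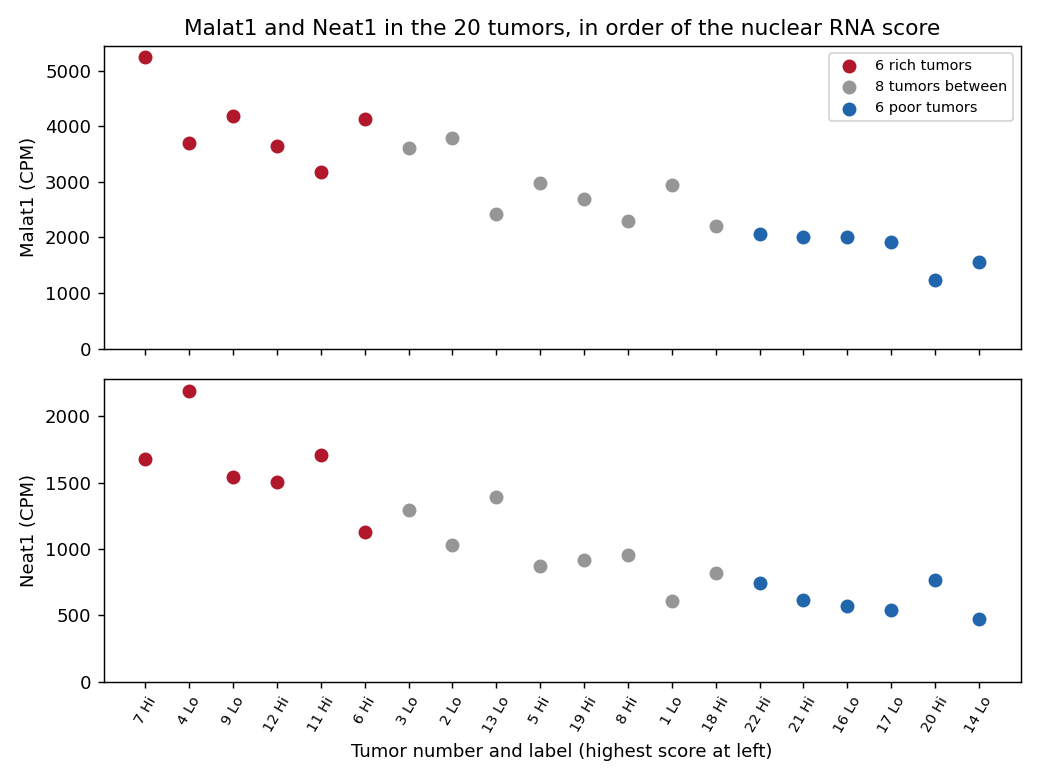
Malat1 and Neat1 (vertical axes, CPM) in each of the 20 tumors in order of the score, with red points for the 6 rich, grey for the 8 between and blue for the 6 poor tumors. Malat1 was at least 3181 CPM in every rich tumor and at most 2065 CPM in every poor one, a separation that the choice of groups fixed.

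Totals ran from 38765682 to 65465755 counts per tumor over all genes, and Yam1 and AY036118 took 6.29% to 27.7% of them. Neither the total (exact permutation p = 0.219) nor that share (exact permutation p = 0.885) differed between rich and poor beyond the spread, with exact two-sided tests over 924 arrangements. The number in the tumor names did separate the groups: the rich tumors are numbered 4 to 12 and the poor 14 to 22. What the number stands for is not given in the sources used here, and in this comparison it cannot be told apart from the score. Some counts below are therefore followed by a slope on the score over all 20 tumors with the number (to 12, or from 13) as a covariate. Others are followed by slopes within the tumors numbered to 12 or from 13, or by neither. In these bulk samples fewer cells of a type and less RNA per cell cannot be told apart.

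Across 18826 genes tested (edgeR, quasi-likelihood, p-values adjusted after Benjamini and Hochberg), 1865 (9.91%) were higher and 812 (4.31%) lower in the rich tumors at an adjusted p under 0.05. Among called genes the median log2 difference was 0.72 for those that were higher and -0.30 for those that were lower, against -0.02 over all genes tested. The 2 sets differed in level, and a gene of few counts needs a larger difference to be called. Among protein-coding genes the median log2 CPM was 4.66 for those higher and 6.20 for those lower. In 5.16% of genes every rich tumor lay above every poor one, and in 2.07% every rich tumor lay below. Scaled by library totals in place of TMM, which sets most genes level between libraries, 2741 were higher and 187 lower, so that the share of calls that were higher went from 69.7% to 93.6%. With the tumor number as a covariate 942 were higher and 323 lower. Within the 11 tumors numbered to 12 the slope called 8 higher and 4 lower, and within the 9 numbered from 13 it called 111 and 9. Of the genes called between rich and poor that entered these fits, 94.5% and 93.8% kept their direction. Over all genes tested there, 50.3% and 50.6% had a slope above 0. Each fit holds tumors of the groups compared, so these shares are a description.

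The nuclear long noncoding RNAs were higher in the rich tumors beyond the pair that defined them. Of 11 in the count table beside Malat1 and Neat1, 10 passed the filter on low counts, 8 were higher and none was lower, with a median log2 difference of 0.87 against -0.02 over all genes. This list and the gene lists below were chosen with earlier results of these data known, so their counts are a description. Over all genes 9.91% were higher and 4.31% lower. Xist, which coats the silenced X chromosome, reached 1659.8 CPM in the lowest, 1894 in the median and 2181.9 in the highest rich tumor, and 954, 1108 and 1363 CPM in the poor tumors. No poor tumor reached the lowest rich one, and the log2 difference was 0.77 ± 0.11 (SE, edgeR adjusted p = 0.000761). Firre, an X-linked RNA that holds chromosomes near the nucleolus, stood at 26.5, 31.3 and 39.05 CPM in the rich against 11.2, 17.4 and 19.1 CPM in the poor (0.97 ± 0.12, edgeR adjusted p = 0.000479).

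RNAs that silence imprinted neighbours in cis were among them. Airn, which silences the paternal Igf2r region, stood at 26.2, 32.1 and 40.8 CPM in the rich tumors and at 10.6, 15.2 and 20.7 CPM in the poor (1.08 ± 0.15, edgeR adjusted p = 0.000785). Kcnq1ot1, the antisense RNA of the Kcnq1 domain, stood at 40.1, 59.4 and 76.1 CPM against 12.8, 26.2 and 31.5 CPM (1.31 ± 0.21, edgeR adjusted p = 0.00137). Meg3, made from the Dlk1-Dio3 domain, stood at 12.4, 17.04 and 19.1 CPM against 4.48, 7.96 and 9.66 CPM (1.10 ± 0.17, edgeR adjusted p = 0.00129). In all 3 the groups did not overlap. Tug1 (log2 difference -0.14, edgeR adjusted p = 0.141) and Rian (0.34, edgeR adjusted p = 0.427) did not pass. Among the 8 tumors between, the slope on the score was above 0 for 6 of the 10. It was below 0 for Mirg (-1.22 on the log2 scale per unit of score), Rian (-0.86), Meg3 (-0.42) and Pvt1 (-0.10), of which all but Rian had been called higher in the rich tumors. With the number as a covariate 3 of the 10 were called. Within the tumors numbered to 12 none was, with a median slope of 0.17, and within those numbered from 13 it was 2, with a median of 0.44.

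Messages known for a retained intron or for nuclear detention were higher nearly throughout. Of 20 listed 19 were tested, and 17 were higher and none lower, with a median of 0.54. Over all genes 9.91% were higher, and the list was chosen with earlier results of these data known. Ccnl2, a cyclin of the splicing machinery whose message keeps introns, stood at 137, 147 and 182 CPM in the rich tumors and at 82.8, 89.7 and 109.7 CPM in the poor (0.76 ± 0.09, edgeR adjusted p = 0.000247). Its relative Ccnl1 stood at 82.5, 88.7 and 98.2 against 54.6, 59.6 and 66.7 CPM (0.59 ± 0.07, edgeR adjusted p = 0.000247). Ogt, the O-GlcNAc transferase, whose detained intron answers to the level of the modification, stood at 439, 494 and 571 against 219, 275 and 342 CPM (0.87 ± 0.10, edgeR adjusted p = 0.0003). The groups overlapped in none of these. Pnisr, a serine and arginine rich nuclear protein, stood at 82.8, 113 and 155 against 52.7, 59.8 and 73.5 CPM (0.98 ± 0.13, edgeR adjusted p = 0.000559). Srsf7 (0.21, edgeR adjusted p = 0.0678) and Rbm39 (0.20, edgeR adjusted p = 0.0644) did not pass. Slopes with the number as a covariate passed for 14 of the list, all positive. It was the list with the most calls left within the tumors numbered from 13, at 7, with a median slope of 0.33. Within those numbered to 12 it had none, with a median of 0.20.

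Genes for the proteins of the speckles moved less. Of 18 tested 9 were higher and none lower, with a median of 0.28. By slope none of the 18 was called within the tumors numbered to 12, with a median of 0.02. Within those numbered from 13 it was 1, with a median of 0.17. Srrm2, a scaffold of the speckle, stood at 741, 871 and 907 CPM in the rich and 494, 529 and 564 CPM in the poor tumors (0.69 ± 0.07, edgeR adjusted p = 0.000196). Pnn, a speckle protein of the exon junction, stood at 104, 115 and 128 against 75.9, 79.0 and 90.4 CPM (0.53 ± 0.06, edgeR adjusted p = 0.000334). The splicing factors Srsf2 (0.43 ± 0.08) and Srsf6 (0.31 ± 0.06) were also higher with no overlap between groups (edgeR adjusted p = 0.00324 and 0.00347).

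Of 16 paraspeckle protein genes 6 were higher and none lower, with a median of 0.12, and 3 were higher without tumor 9 or without tumor 14. They included Hnrnph3 (0.53 ± 0.08, edgeR adjusted p = 0.00132) and Ewsr1 (0.29 ± 0.07, edgeR adjusted p = 0.00948), both RNA-binding proteins. Dazap1 (0.25 ± 0.07, edgeR adjusted p = 0.0246) lost its call without tumor 9 or without tumor 14. The core proteins that bind Neat1 did not pass: Sfpq differed by 0.08, Nono by -0.09 and Pspc1 by 0.04 on the log2 scale. These 3 are named for their role, after their values were seen. By slope none of the 16 was called within the tumors numbered to 12 or from 13, with medians of -0.02 and 0.06.

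Genes that lie inside introns made up the sharpest contrast by class. The classes are those of GENCODE M21, to which 42462 of 43346 genes in the table matched by identifier. Counts by class, here and below, hold genes that passed the filter on low counts. The rich tumors alone could satisfy that filter, so these counts are a description. Of 14645 protein-coding genes tested 1009 (6.89%) were higher and 732 lower, with a median of -0.04. Of 192 snoRNA genes 92 (47.9%) were higher and none lower, with a median of 0.77. Of 41 sense intronic RNAs 26 (63.4%) were higher and none lower, with a median of 0.91. Provisional transcripts, a class that awaits experimental support and often lies in introns, gave 147 higher of 338 (43.5%) and 1 lower, RP24-299H18.2, with a median of 0.89. Long intergenic RNAs gave 124 higher of 509 (24.4%), antisense RNAs 192 of 1000 (19.2%), and processed pseudogenes 65 higher and 49 lower of 908. Without tumor 9, 22, 7, 11, 14, 12, 20 or 16 the processed pseudogenes lower were 18, 19, 20, 21, 23, 25, 29 and 31. By slope within the tumors numbered to 12, 0 of 146 snoRNA genes, 0 of 246 provisional transcripts and 0 of 30 sense intronic RNAs were called. Their median slopes there were 0.28, 0.19 and 0.27. Within those numbered from 13 it was 0 of 107, 8 of 189 and 1 of 22, with median slopes of 0.43, 0.28 and 0.46.

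**Figure D2:**
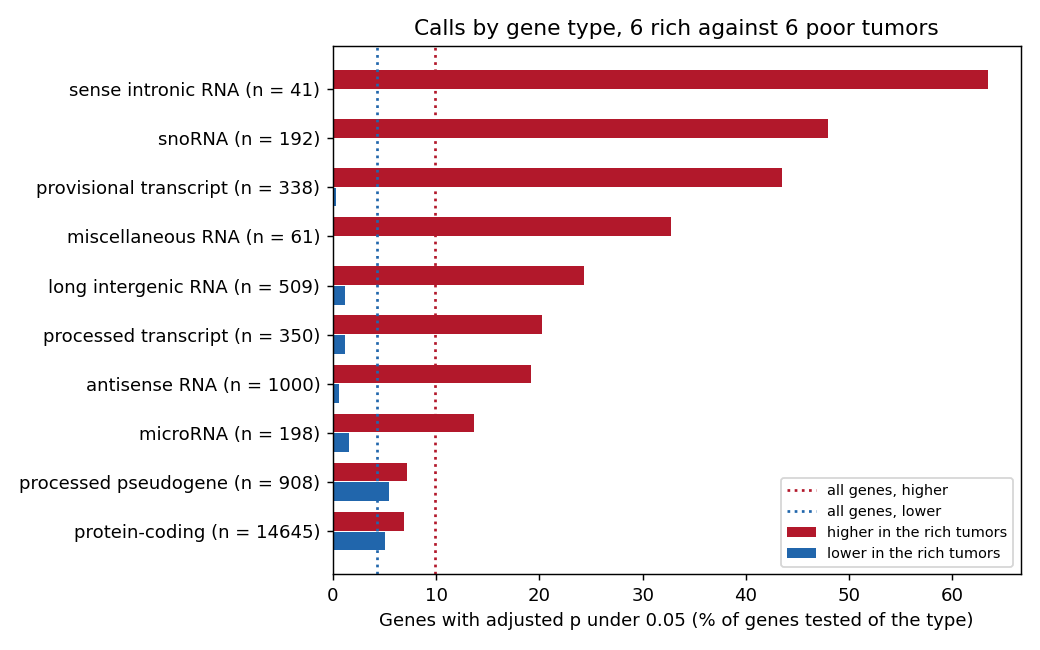
Percent of tested genes of each GENCODE class (vertical axis, with the number tested) that were higher (red bars) or lower (blue bars) in the 6 rich against the 6 poor tumors at an edgeR adjusted p under 0.05. Dotted lines give the shares over all genes, 9.91% and 4.31%. Only the protein-coding genes and processed pseudogenes among these 10 classes had lower shares close to or above 4.31%. Classes hold genes that passed the filter on low counts, which the rich tumors alone could satisfy.

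Position separated the noncoding genes further, here every matched class other than protein-coding, pseudogenes included. Of 630 noncoding genes lying wholly in an intron of another gene on the same strand 266 (42.2%) were higher, with a median of 0.87. In an intron on the other strand it was 128 of 352 (36.4%), with a median of 0.62. Outside other genes it was 141 of 1193 (11.8%), with a median of 0.00 and 41 lower, and leaving out tumor 9, 11, 22, 7, 14, 12, 20 or 16 gave 16 to 27 lower. Counting by strand was not stated for these libraries, so that reads of a host intron and of a gene inside it cannot be told apart, on either strand. Over 569 such same-strand genes with a tested host, their summed share of counts was 0.161% to 0.181% in the rich, 0.136% to 0.170% in the between and 0.113% to 0.138% in the poor tumors, and rich and poor did not overlap. The sum and the counts by position hold genes that passed the filter on low counts in these tumors, which the rich tumors alone could satisfy. They are given as a description. With the number as a covariate 83 of 445 same-strand intronic genes had a positive slope that passed and 1 a negative one.

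A pair of named snoRNA genes is shown because each lies in an intron of a gene that was not higher. Sequences are GENCODE M21 transcripts on GRCm38: Snord21 in Rpl5 at chr5:107904555-107904648 (plus strand) and Snora34 in Kansl2 at chr15:98519716-98519853 (minus strand). Capitals mark TGATG and the last CTGA, the letters of the C and D boxes, in Snord21, and AGAGAA and the last ACA, letters of the H and ACA boxes, in Snora34, whose ACA ends 3 bases before the end.
Snord21: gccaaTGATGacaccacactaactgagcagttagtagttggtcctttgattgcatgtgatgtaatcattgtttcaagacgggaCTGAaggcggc
Snora34: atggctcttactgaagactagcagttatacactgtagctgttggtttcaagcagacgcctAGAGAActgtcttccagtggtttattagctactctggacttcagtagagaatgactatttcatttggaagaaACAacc
Among 1472 annotated mouse snoRNA transcripts of 60 to 200 bases, searched on the transcript strand, 31.9% held both TGATG and CTGA and 18.3% ended 3 bases after an ACA.

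Snord21, a guide of the box C/D kind, stood at 0.784, 0.861 and 1.31 CPM in the rich tumors and 0.314, 0.442 and 0.475 CPM in the poor (1.19 ± 0.20, edgeR adjusted p = 0.00198). Its host Rpl5, a protein of the large ribosomal subunit, went the other way, at 254, 292 and 303 CPM against 294, 356 and 433 CPM (-0.30 ± 0.09, edgeR adjusted p = 0.0326). Snora34, of the box H/ACA kind, stood at 1.61, 1.73 and 1.78 CPM against 0.397, 0.821 and 1.11 CPM (1.07 ± 0.20, edgeR adjusted p = 0.00422), and its host Kansl2 differed by -0.08 (edgeR adjusted p = 0.546). Counts over each snoRNA gene were thus higher while its host was lower or not called. The snoRNA genes tested had a median length of 93 bases, shorter than the reads, which were trimmed to 100 bases. Mature snoRNAs were thus not measured apart from reads of the host intron. Snora81 and Gm24201, both in introns of Eif4a2, a translation initiation helicase, differed by 1.07 and 1.08 (edgeR adjusted p = 0.00163 and 0.000918), against 0.17 for the host (edgeR adjusted p = 0.177).

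Across hosts, 74 of 139 intronic snoRNA genes in 80 tested hosts were higher and none lower. Of the 74, 16 lay in a host that was lower, 51 in one not called and 7 in one that was higher. Of the 139, 131 had a larger log2 difference than their host, with a median gap of 0.90. Their hosts had a median of -0.07. In ribosomal protein genes there were 45 snoRNA genes in 26 hosts, of which 22 were higher and none lower. Their median was 0.78, against -0.26 for the hosts, and 14 of the 26 hosts were lower and none higher. The 4 snoRNA genes tested in Rpl13a, of the large subunit, were all higher, by 1.07 for Snord32a, 1.09 for Snord33, 1.32 for Snord34 and 1.15 for Snord35a, while Rpl13a fell by 0.30 (edgeR adjusted p = 0.0161). Summed over the 139 genes the level was 151 to 191 CPM in the rich, 113 to 163 CPM in the between and 84.1 to 132 CPM in the poor tumors. These genes passed the filter on low counts, which the rich tumors alone could satisfy, so the sum and the counts are a description. Snord genes of one host share its transcript and are not separate replicates.

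**Figure D3:**
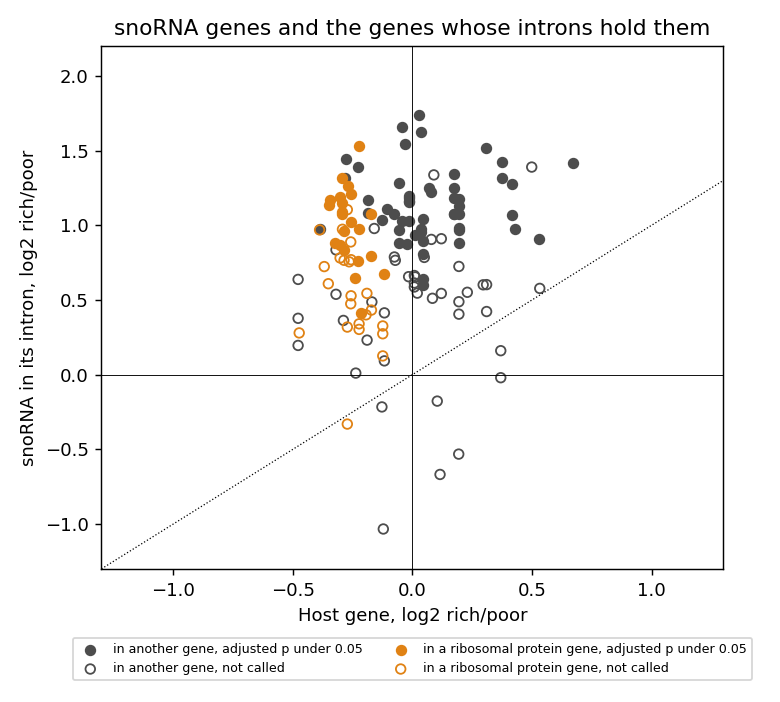
Log2 difference between rich and poor tumors of 139 snoRNA genes (vertical axis) against that of the gene whose intron holds each (horizontal axis), filled where the snoRNA passed an edgeR adjusted p under 0.05 and orange where the host is a ribosomal protein gene. Of the points 131 lie above the dotted line of equal difference, and every orange point lies left of 0 on the horizontal axis. Reads of a snoRNA gene and of the host intron around it cannot be told apart.

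The list of small nucleolar and Cajal body RNAs, drawn up by gene name, gave 38 higher of 95 tested and none lower, with a median of 0.66. In the table were 146 of them, 18 at 0 in every tumor. Those tested passed the same filter on low counts, which the rich tumors alone could satisfy. Their share of counts was 0.00999% to 0.0119% in the rich and 0.00619% to 0.0106% in the poor tumors (exact permutation p = 0.00433, adjusted p = 0.0182 over 21 measures), and 1 poor tumor, 16, lay above the lowest rich one. With the number as a covariate 12 of 74 had a positive slope that passed and none a negative one. With an offset per tumor fitted to exon length, 8 of 95 were higher. The offset was fitted with these short genes included, so it removes their shared rise in part by construction. Long host RNAs of snoRNAs gave 5 higher of 14 and 1 lower, Snhg18 (-0.36, edgeR adjusted p = 0.0367), with none lower without tumor 4, 6, 7, 9, 11, 16, 17 or 22. The smallest p was that of 9430008C03Rik, at 64.0, 77.3 and 97.0 CPM against 37.95, 44.3 and 49.4 CPM (0.87 ± 0.09, edgeR adjusted p = 0.0002).

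MicroRNA genes were higher mainly where they lie in introns. The 3 hairpins with the smallest p among listed microRNA genes are printed from RefSeq (GRCm38.p6), with the seed, bases 2 to 8 of each mature arm, in capitals. All are on the minus strand: Mir6922 at chr11:60202262-60202327 within Srebf1, Mir6999 at chr2:91944870-91944930 within Dgkz and Mir7036 at chr5:137296624-137296688 within Srrt. RefSeq held a hairpin for 123 of 198 microRNA genes tested.
Mir6922: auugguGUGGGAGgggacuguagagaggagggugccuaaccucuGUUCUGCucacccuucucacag
Mir6999: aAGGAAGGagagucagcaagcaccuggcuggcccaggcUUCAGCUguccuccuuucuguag
Mir7036: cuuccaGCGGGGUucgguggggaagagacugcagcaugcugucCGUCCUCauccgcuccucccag
Each ends with 0 bases between it and the next exon of its host, and Mir6922 and Mir7036 overlap an exon of some other transcript of the host. The hairpins are 61 to 66 bases long, shorter than the reads, which were trimmed to 100 bases, and mature microRNAs were not measured.

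Mir6922 stood at 1.93, 2.18 and 3.29 CPM in the rich tumors and 0.588, 0.701 and 0.987 CPM in the poor (1.63 ± 0.18, edgeR adjusted p = 0.000243). Mir6999 stood at 1.19, 1.80 and 2.60 against 0.439, 0.540 and 1.04 CPM (1.60 ± 0.25, edgeR adjusted p = 0.00132), and Dgkz, a diacylglycerol kinase, was also higher but by 0.31 (edgeR adjusted p = 0.0395). Mir7036 stood at 0.971, 1.56 and 1.75 against 0.543, 0.635 and 0.725 CPM (1.21 ± 0.19, edgeR adjusted p = 0.00161), with Srrt, an RNA-processing zinc finger protein, at 0.38 (edgeR adjusted p = 0.0109). Dgkz and Srrt were thus higher too, by less than the hairpins, and the level of Srebf1 is not reported here. Of 155 listed microRNA genes tested, of 1081 in the table, 29 were higher and 1 lower, Mir692-3, with a median of 0.25, and none was lower without tumor 9, 11, 12, 16, 21 or 22. Those in a same-strand intron gave 17 higher of 48, and those over an exon on the same strand 9 of 121, Mir6922 among them. The median of the list turned to -0.10 with the exon length offset, with 13 higher and 17 lower. That offset was fitted over all genes tested, these short ones included, so it removes in part a rise that short genes share. Mir17hg, the long host RNA of a microRNA cluster, was also higher (0.98 ± 0.12, edgeR adjusted p = 0.000289).

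Other noncoding genes are named for having the smallest p in their class. Gm15684, an antisense RNA, stood at 12.4, 14.2 and 15.8 CPM in the rich and 3.86, 4.42 and 5.54 CPM in the poor tumors (1.64 ± 0.11, edgeR adjusted p = 8.68e-06). RP23-461P14.1, a provisional transcript in an intron of Nedd4, a ubiquitin ligase, was higher by 1.32 ± 0.16 (edgeR adjusted p = 0.000289), against -0.12 for Nedd4 (edgeR adjusted p = 0.302). RP23-13A13.6 in Srsf4, a splicing factor, was higher by 1.28 ± 0.14 and Srsf4 itself by 0.34 (edgeR adjusted p = 0.000243 and 0.0328). Cep112os2 in Cep112, a centrosome gene, was higher by 1.09 ± 0.12 against 0.10 for Cep112 (edgeR adjusted p = 0.000247 and 0.652). D430018E03Rik in Fbxl18 was higher by 1.60 ± 0.20 and Fbxl18 by 0.40 (edgeR adjusted p = 0.000357 and 0.0038).

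Over 175 provisional transcripts in same-strand introns of tested hosts 101 were higher, with a median of 1.05 against -0.06 for the hosts. Among the long intergenic RNAs 2900076A07Rik (0.93 ± 0.09) and Gm21781 (1.26 ± 0.12) had the smallest p, each with an edgeR adjusted p of 7.83e-05. AI480526 and RP23-371A16.2 overlap on chromosome 5 on opposite strands and were higher by 1.31 and 1.499, and their reads cannot be told apart. Gm7162, a pseudogene in an intron of Airn, was higher by 1.33. Gm27505, Gm27533 and Gm28006 (1.43, 1.42 and 1.36) are annotated pieces of Neat1 itself, and with 3 more inside Malat1 or Neat1 they share the reads that chose the tumors. Without these 6 genes 1859 were higher and 811 lower.

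Protein-coding genes split by length. Without tumor 9, 22, 7 or 12 the number lower was 400, 424, 439 and 469, against 732 in all 12 tumors. The 1009 that were higher had a median exon length of 5305 bases and the 732 that were lower one of 2261 bases, against 3743 over all tested. In 10 classes of equal size by exon length, the shortest, 36 to 1436 bases, held 41 higher and 182 lower of 1465, with a median log2 difference of -0.16. The longest, 8449 to 116825 bases, held 202 higher and 6 lower of 1464, with a median of 0.06. Without tumor 9, 22, 7 or 12 the shortest class held 97, 108, 118 and 120 lower. In all 12 tumors the share that was lower fell at each step from 12.4% to 0.41%, and the share that was higher rose at each step from 2.80% to 13.8%. By genomic span, introns included, there was no such order in the share higher. The shortest of 10 classes gave 5.39% higher and 8.81% lower and the longest 3.89% and 2.46%. With 5 classes of each, 8.76% of genes longest by both exon length and span were higher, against 21.1% of genes of the longest class by exon length and the middle class by span.

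Per tumor, the slope of the level of 13283 protein-coding genes on log2 exon length was -0.0224 to 0.0756 in the rich, with a median of 0.0419, and -0.0638 to -0.0143 in the poor, with a median of -0.0255. The mean difference was 0.0685 (exact permutation p = 0.00866, adjusted p = 0.0303 over 21 measures), with rich tumor 4 inside the poor range. The call was lost without tumor 22. The slope on span at a given exon length differed by -0.0205 (exact permutation p = 0.0649, adjusted p = 0.136). With the exon length offset, which removes this trend by construction, the longest of the 10 classes gave 108 higher and 68 lower. The slope on the score with the number as a covariate gave 101 and 14 in the longest class and 20 and 79 in the shortest.

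**Figure D4:**
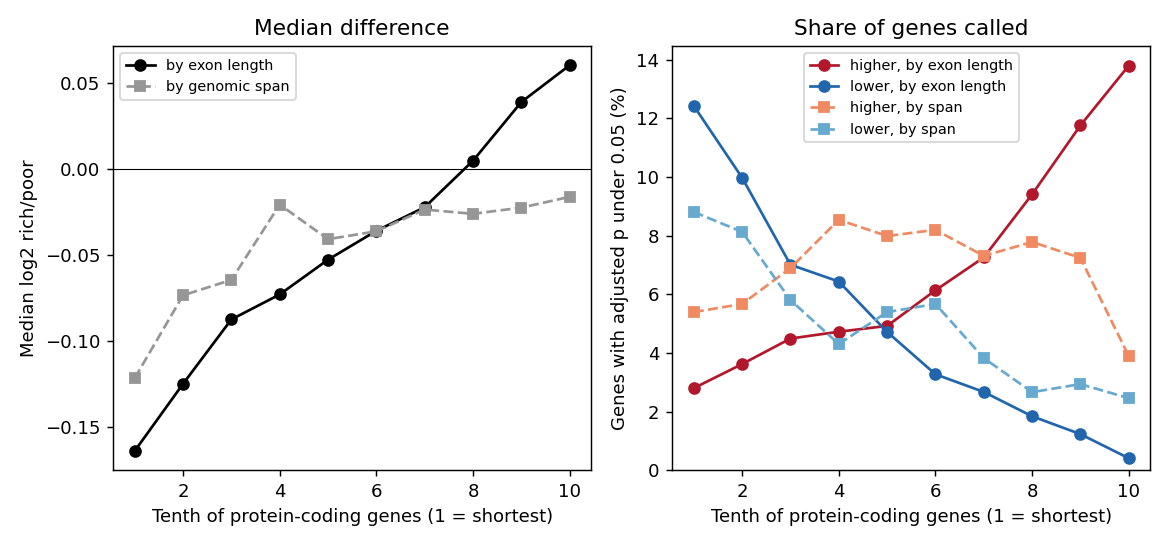
Protein-coding genes in 10 classes of equal size by exon length (circles) or genomic span (squares), shortest at left, with the median log2 difference between rich and poor tumors at left and the percent of genes called higher or lower at right. By exon length the median went from -0.16 to 0.06, and the share lower from 12.4% to 0.41%.

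Annotation of a retained intron went with the change as well. Of protein-coding genes with a GENCODE retained-intron transcript 8.62% of 8128 were higher and 4.76% lower, against 4.73% and 5.29% of 6517 without one. Among the genes that were higher 69.5% had such a transcript, against 52.9% of those that were lower and 55.5% of all. In the longest of 5 classes by exon length it was 14.2% higher with and 8.37% without, and in the shortest 2.33% and 3.71%, the opposite order. Sugp2, a splicing protein and a protein-coding gene named for its small p, stood at 36.5, 43.5 and 46.6 CPM against 24.1, 24.9 and 27.5 CPM (0.78 ± 0.07, edgeR adjusted p = 7.83e-05).

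Of 25 genes for large chromatin regulators, with a median exon length of 12784 bases, 10 were higher and none lower, with a median of 0.20. Over all genes tested 9.91% were higher, and 13.8% in the longest of the 10 classes by exon length. Kmt2d, a histone methyltransferase, stood at 290.1, 348 and 447 CPM in the rich and 147, 180.2 and 214 CPM in the poor tumors (0.97 ± 0.11, edgeR adjusted p = 0.000289). Its relative Kmt2a stood at 182, 202 and 223 against 113, 124 and 147 CPM (0.67 ± 0.08, edgeR adjusted p = 0.000289). Trrap, a scaffold of acetyltransferase complexes, was higher with no overlap (0.53 ± 0.07, edgeR adjusted p = 0.000559). Slopes with the number as a covariate passed for 5, all positive.

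Of 389 zinc finger genes 43 (11.1%) were higher and 6 (1.54%) lower, with a median of 0.09, so that the share higher was near the 9.91% over all genes. Leaving out tumor 9 or tumor 14 gave 24 higher, and leaving out tumor 12 gave 27. Zfp488 (0.79 ± 0.11), Zfp692 (0.83 ± 0.13), Zfp446 (0.59 ± 0.10) and Zfp949 (0.62 ± 0.10), all DNA-binding proteins, had the smallest p (edgeR adjusted p = 0.000624, 0.00137, 0.00164 and 0.00172). The summed share of counts of the whole list, 0.841% to 0.920% in the rich and 0.739% to 0.805% in the poor, did not overlap (exact permutation p = 0.00216, the smallest 924 arrangements allow, adjusted p = 0.0152).

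Of 88 messages of cytosolic ribosomal proteins tested 56 were lower and none higher, with a median of -0.29, and 87 had a difference below 0. The number lower was 32 without tumor 12 or tumor 22, 34 without tumor 9, 35 without tumor 7 and 36 without tumor 16. Rpl39, of the large subunit, stood at 249, 268 and 314 CPM in the rich and 340, 375 and 438 CPM in the poor tumors (-0.47 ± 0.08, edgeR adjusted p = 0.00171). Rps27, of the small subunit, stood at 126, 146 and 161 against 178, 193 and 206 CPM (-0.41 ± 0.07, edgeR adjusted p = 0.0014). Rpl37 (-0.37 ± 0.07) and Rpl38 (-0.38 ± 0.07) also fell with no overlap (edgeR adjusted p = 0.0035 and 0.00396). The median exon length of the list was 1454 bases.

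The summed share of ribosomal protein messages was 2.66% to 3.31% of counts in the rich, 3.09% to 3.86% in the between and 3.09% to 3.63% in the poor tumors. Rich and poor overlapped, and the mean difference of -0.433 points (exact permutation p = 0.0130, adjusted p = 0.0341 over 21 measures) lost its call on leaving out any 1 of 7 tumors, namely 6, 7, 9, 12, 16, 20 or 22, or on keeping Yam1 and AY036118 in the totals. Scaled by library totals 15 of the 88 were lower, and with the number as a covariate 16 of 87 were. Within the tumors numbered from 13 none of 86 was by edgeR, with a median slope of 0.01. Within those numbered to 12 it was 1 of 86, with a median slope of -0.26. Many of these genes have near-identical pseudogenes, and reads could be split between copies.

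Of 77 nuclear-encoded genes of the respiratory chain tested 30 were lower and none higher, with a median of -0.25, and without tumor 9 it was 15. Atp5j2 and Atp5c1, of ATP synthase, differed by -0.35 ± 0.07 and -0.31 ± 0.06 (edgeR adjusted p = 0.00403 and 0.00609). Ndufb9, of complex I, stood at 86.7, 99.3 and 110.8 CPM against 121, 127 and 149.5 CPM (-0.39 ± 0.08, edgeR adjusted p = 0.00605), and Cox7a2, of cytochrome c oxidase, at 129, 132 and 145 against 152, 173 and 191 CPM (-0.34 ± 0.07, edgeR adjusted p = 0.00686). Their share of counts was lower by 0.0815 points (exact permutation p = 0.00433, adjusted p = 0.0182), a call lost with Yam1 and AY036118 in the totals. The 13 mRNAs of the mitochondrial genome were listed at 0 in every tumor and say nothing here. With the number as a covariate 25 of 77 had a negative slope that passed, and scaled by library totals 9 were lower.

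Of 37 proteasome subunits 7 were lower and none higher, with a median of -0.20, and all 37 had a difference below 0. The number lower was 19 without tumor 4, 3 without tumor 7 or tumor 9 and 4 without tumor 12, tumor 14 or tumor 22. The summed share of counts differed by -0.0266 points and did not pass (exact permutation p = 0.143, adjusted p = 0.273). By slope none of the 37 was called within the tumors numbered to 12 or from 13, with medians of -0.16 and -0.04. Psmd5 (-0.34 ± 0.07), Psma2 (-0.29 ± 0.07), Psmb1 (-0.26 ± 0.06) and Psmb7 (-0.31 ± 0.08) had the smallest p (edgeR adjusted p = 0.00758, 0.0144, 0.0168 and 0.0223). Psmb7 lost its call without tumor 7 or tumor 9, and Psma2, Psmb1 and Psmb7 lost theirs when scaled by library totals, which called 1 of the list. Histone messages of the replicating cell, which lack a poly(A) tail, gave 1 higher of 44 and 2 without tumor 22. The 1 was Hist2h4 (0.65 ± 0.18, edgeR adjusted p = 0.0249), which lost its call without tumor 9 or tumor 14.

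The complexity of the libraries followed the groups. A count was found for 25201 to 25676 genes in the rich tumors and 23557 to 24707 in the poor, with no overlap and a mean difference of 1212 (exact permutation p = 0.00216, adjusted p = 0.0152 over 21 measures). The 8 tumors between had 24098 to 25634. With every tumor thinned to 38765682 counts, an alternative chosen after seeing the data, the ranges were 24698 to 24960 and 23492 to 24246, and the difference was 1068 (exact permutation p = 0.00216, adjusted p = 0.0152).

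**Figure D5:**
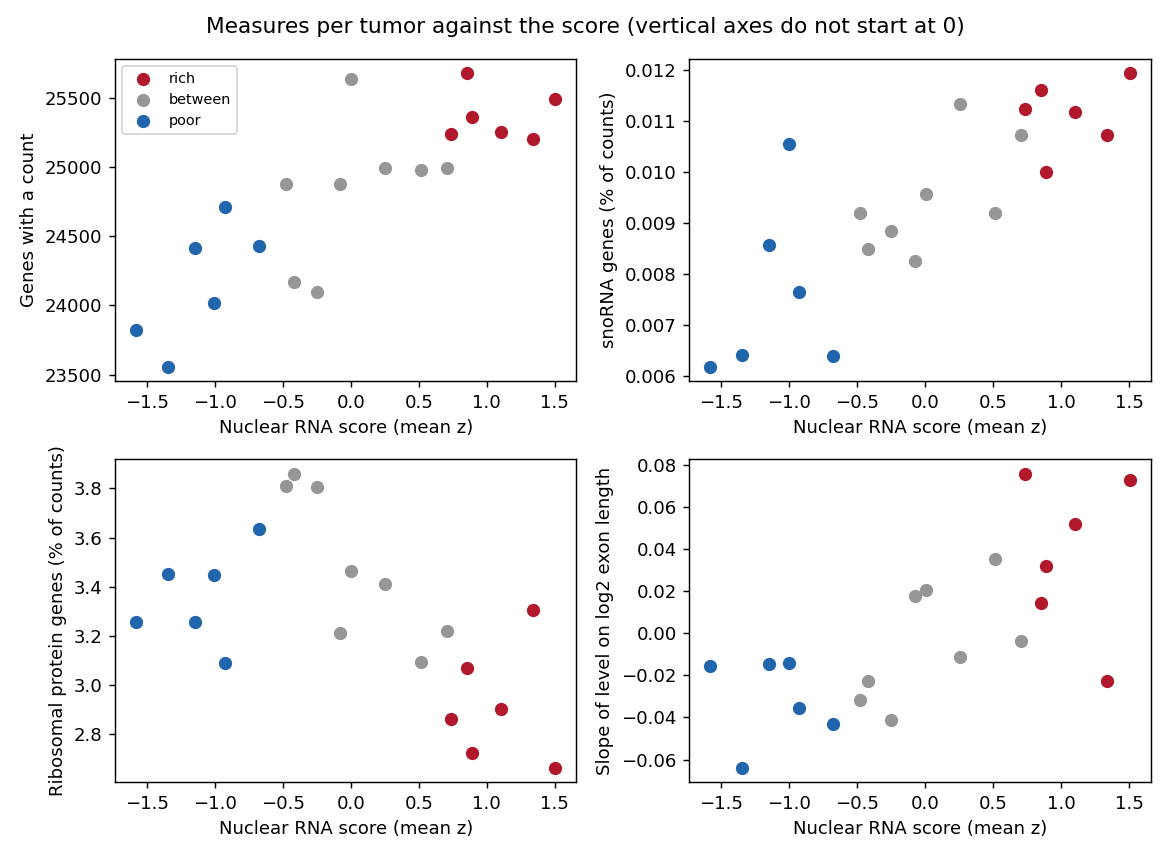
Measures of 4 kinds per tumor against the nuclear RNA score, with red points for the 6 rich, grey for the 8 between and blue for the 6 poor tumors, on vertical axes that do not start at 0. Genes with a count reached 25201 or more in every rich tumor and 24707 or fewer in every poor one, whereas the other measures overlapped.

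Markers of other cell types were compared over whole lists. Leukocyte markers gave 5 lower and none higher of 19, with a median of -0.19 and a summed level of 583 to 783 CPM in the rich and 658 to 847 CPM in the poor tumors. The 5 were C1qa (-0.27 ± 0.07), Lyz2 (-0.50 ± 0.12), Tyrobp (-0.33 ± 0.09), C1qb (-0.28 ± 0.07) and Laptm5 (-0.36), of which C1qa, C1qb and Lyz2 mark macrophages (edgeR adjusted p = 0.0175, 0.018, 0.023 and 0.0257 for the first 4). The number lower was 2 without tumor 7 or tumor 12 and 3 without tumor 22. Tyrobp lost its call without tumor 7 or 12, and C1qb without tumor 7, 12, 14 or 22. The z-score of the list differed by -0.186 (exact permutation p = 0.416). By slope none of 14 leukocyte markers tested was called within the tumors numbered to 12 or from 13, with medians of -0.18 and 0.09. None of the markers of fibroblasts (12), endothelium (12), adipocytes (12), basal epithelium (9), skeletal muscle (9) or red blood cells (5) was called by edgeR over the 12 tumors, and their z-scores gave exact permutation p from 0.18 to 0.896. The part of other cells in the differences above was not tested.

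Luminal epithelium, the cell type the tumors come from, was well seen, at 4439 to 5163 CPM summed in the rich and 5171 to 6206 CPM in the poor tumors. Of 14 markers 3 were lower, the keratins Krt7 (-0.52 ± 0.11) and Krt8 (-0.42 ± 0.11) and the transcription factor Elf3 (-0.57 ± 0.16), with edgeR adjusted p of 0.00687, 0.0223 and 0.0324. The z-score of the list differed by -0.755 (exact permutation p = 0.0130, adjusted p = 0.0341), and that call was lost on leaving out any 1 of 8 tumors, namely 4, 6, 7, 9, 12, 17, 21 or 22. Without tumor 7 only 1 of the markers was lower. Krt8 lost its call without tumor 7, and Elf3 without any 1 of 6 tumors, namely 4, 6, 7, 17, 21 or 22. Krt7 and Krt8 both lie on chromosome 15, as do Rpl37 and Ndufb9 above. There 91 of 706 genes tested (12.9%) were lower and 45 (6.37%) higher, against 4.31% and 9.91% over all genes. The part of chromosome dosage in these falls was not tested. By slope none of the 14 markers was called within the tumors numbered to 12 or from 13. Milk genes had a median of -1.48 over 11, with 1 called, Btn1a1, of the milk fat globule, but 6 were lower without tumor 7, 5 without tumor 20 and none without tumor 4, 6, 9, 11, 12, 14, 21 or 22. Csn2, beta-casein, ranged from 58.7 to 882 CPM in the rich and 224 to 4881 CPM in the poor tumors (edgeR adjusted p = 0.0657). In the between tumors the median slope of the milk genes was 1.39, opposite in sign.

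The lists of hypoxia response (16), p53 targets (15) and immediate-early genes (14) each gave 1 gene lower and none higher, against 4.31% lower over all genes. Without tumor 4 it was 5 for hypoxia response and 5 for p53 targets, and without tumor 14 or tumor 20 it was 2 for hypoxia response. The genes were Egln3, an oxygen sensor (-0.37 ± 0.09, edgeR adjusted p = 0.0187), Btg2, an antiproliferative gene (-0.54 ± 0.14, edgeR adjusted p = 0.0183), and Atf3, a stress transcription factor (-0.70 ± 0.12, edgeR adjusted p = 0.00171). Among 14 heat shock and unfolded protein genes and 18 of mitosis and DNA replication none was called by edgeR, with medians of -0.26 and -0.01, and 2 heat shock and unfolded protein genes were lower without tumor 4 or tumor 20.

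Among called genes whose mean log2 CPM reached 3, the largest rise was that of Apoc1 and the largest fall that of Pdgfa. Apoc1, an apolipoprotein, stood at 23.7, 38.9 and 99.4 CPM in the rich and 1.54, 8.43 and 23.2 CPM in the poor tumors (2.26 ± 0.52, edgeR adjusted p = 0.0113). In the between tumors it was 25.2 to 116 CPM in those numbered to 12 and 2.77 to 19.1 CPM in those numbered from 13, and its slope with the number as a covariate was -0.31. Pdgfa, a growth factor, differed by -3.38 ± 0.96 on the log2 scale (edgeR adjusted p = 0.031). It was 311 and 446 CPM in poor tumors 21 and 16 and between 10.1 and 16.1 CPM in the other 4, against 10.4 to 19.9 CPM in the rich, and its call was lost without tumor 16 (-2.49), tumor 21 (-2.94) or any of 5 rich tumors, namely 6, 7, 9, 11 or 12.

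Arg1, arginase, was lower with no overlap, at 12.1, 22.3 and 27.9 CPM against 30.3, 44.4 and 54.7 CPM (-1.05 ± 0.17, edgeR adjusted p = 0.0018). Sftpd, a surfactant protein (-2.08), and Stom, a membrane protein (-0.84), kept their calls whichever single tumor was left out (edgeR adjusted p = 0.0174 and 0.0143), but not with 5 tumors a group. Btn1a1 (-1.69), Npy (-1.29), Scube1 (-1.13), Ly6a (-0.92), Cd14 (-0.85) and Lipa (-0.83) lost theirs without any 1 of 6 to 9 of the 12 tumors, with edgeR adjusted p between 0.0325 and 0.0479. Scube1 differed by -0.70 without tumor 21.

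The 8 tumors between, which the comparison of groups did not use, gave a slope of each gene on the score. None of 18826 genes was called there by edgeR (0%), and 1129 (6%) had an unadjusted p under 0.05. Of the 1865 genes that were higher in the rich tumors 84.4% had a slope above 0 in these 8 tumors, against 50.4% of all genes tested. Of the 812 that were lower 75.6% had a slope below 0, against 49.6% of all. The median slope was 0.27 for snoRNA genes, 0.25 for the provisional transcripts, 0.25 for the retained-intron list and -0.31 for the ribosomal protein list, whose slope was below 0 in 87 of 88. These are counts over genes of the same 8 tumors, and genes are not independent replicates.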

How the data were processed

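The deposited table holds raw counts per gene for 20 tumors. Per the labels libraries were made from total RNA with a TruSeq mRNA kit. Per the study's methods the authors trimmed reads to 100 bases and ran MapRseq with TopHat, and the submitters' processing notes list TopHat2 2.0.12, featureCounts 1.4.4 and the builds mm10 and hg19. The strand setting and annotation release are not given in the sources used here. Yam1 and AY036118 were removed, genes were filtered with filterByExpr, and counts were compared with edgeR 4.0.16 (TMM, quasi-likelihood test, Benjamini-Hochberg) in R 4.3.3, with DESeq2 1.42.0 as an alternative. Log2 differences are rich over poor as edgeR fitted them. CPM per tumor for Malat1 and Neat1 used plain totals, and others TMM-scaled totals. The totals of 38765682 to 65465755 counts set the precision, and the error given is between tumors, which are separate mice.

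Classes, introns and lengths came from the table and GENCODE M21 on GRCm38. Measures per tumor were compared by exact two-sided permutation, adjusted over 21 measures. Named genes were the up to 4 of smallest unadjusted p in each list and the 2 in each class, whether called or not, the 10 largest differences in each direction among called genes whose mean log2 CPM reached 3, and genes behind a count of 5 or fewer. Hosts of named genes, and members named as not passing, were added after values were seen. The members and lists were chosen with earlier results of these data known. The edgeR test was checked on simulated data in which as many genes rose as fell, all by the same amount on the log2 scale. The calls here were uneven in number and size, a setting that check did not cover. Most same-numbered Lo and Hi tumors did not deviate together, and the main comparison has no block. The labels do not say whether they were paired. A few named genes are not reported here.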

Additional observations from a re-analysis of the deposited data

Results flagged for a closer look

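In 19 of 208 groups of 6 tumors 1 tumor lay far from the others by Dixon's test, where chance gives about 10.4. Among the rich tumors, tumor 6 stood apart for the basal marker z-score (1.12, others at most 0.157), Srsf6 (273 CPM, others at least 311), Atf3 (5.09 CPM, others at least 6.45), Gm21781 (19.9 CPM, others at least 27.1) and RP23-13A13.6 (7.20 CPM, others at most 5.56). Tumor 4 stood apart for Mir6922 (3.29 CPM), Pdgfa (19.9 CPM) and D430018E03Rik (2.60 CPM). Tumor 7 stood apart for Csn2 (882 CPM, others at most 359), and tumor 11 for the share of counts on snoRNA host genes (0.0453%).

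Among the poor tumors, tumor 20 stood apart for the respiratory chain share (1.03% of counts), Sugp2 (27.5 CPM) and D430018E03Rik (0.357 CPM). Tumor 17 stood apart for Psmd5 (87.5 CPM) and Atf3 (13.7 CPM), and tumor 14 for Firre (11.2 CPM, others at least 16.8). Tumor 16 stood apart for Mir6999 (1.04 CPM), tumor 21 for Scube1 (66.0 CPM, others at most 32.6) and tumor 22 for Npy (63.5 CPM, others at most 26.1).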

How the results depend on the processing

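Against 2677 genes called, a minimum mean CPM of 5 gave 1586 (1146 higher, 440 lower), of which 1397 were among the 2677. On the score as a slope over 20 tumors the count was 1123 (967 and 156) with the number in the sample name as replicate block, and 1265 (942 and 323) with tumor numbers to 12 or from 13 as a covariate. Within the tumors numbered to 12 it was 12 (8 and 4) and from 13 it was 120 (111 and 9). Of 9 pairs of same-numbered Lo and Hi tumors 3 had a correlation over 0.1, with a range from -0.39 to 0.24. The labels do not say whether these tumors were paired. The lower genes alone were 187 by library totals, 412 with 5 tumors a group, 491 with Neat1 alone and 1351 with DESeq2. Leaving out 1 tumor gave 1839 to 2765 calls, 1408 to 1831 higher and 431 to 946 lower, with the lowest without tumor 9. The cause was not tested.

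Of 8 measures past the threshold, 0 passed with 5 tumors a group and 5 with Neat1 alone or with Yam1 and AY036118 kept in the totals, and leaving out 1 tumor gave 5 to 9. Slopes on the score turned sign with tumor number as a covariate for Btg2 (0.014), Btn1a1 (0.000404), Csn2 (0.12), Apoc1 (-0.31) and Npy (0.011), and with the replicate block for Csn2 (0.18). Within the tumors numbered to 12 they turned for Egln3 (0.048), Btn1a1 (0.0032), Csn2 (0.20), Apoc1 (-0.63) and Pdgfa (0.18). From 13 they turned for Rpl38 (0.00037), Btg2 (0.052), C1qa (0.086), Tyrobp (0.12), C1qb (0.097), Elf3 (0.00083) and Npy (0.49).

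Measures that did not pass also turned. With 5 tumors a group these were the adipocyte (0.132) and basal (-0.199) z-scores, with 7 the Yam1 and AY036118 share (0.539), with Malat1 alone that share (0.588) and the histone share (0.000118), and with Neat1 alone the endothelial (0.278) and adipocyte (0.120) z-scores. Leaving out 1 tumor gave -1.67 to 1.74 for the Yam1 and AY036118 share, -0.381 to 0.119 for adipocyte, -0.0627 to 0.279 for basal, -0.359 to 0.155 for endothelial, -0.518 to 0.124 for fibroblast and -0.555 to 0.0454 for muscle z-scores. For called genes named in the text 2175 values under an alternative kept direction and call, 338 kept direction only and 15 turned sign.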
